A study of Drosophila melanogaster with 3 samples.

Results

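The regions described here are 420 autosomal places in the Drosophila melanogaster genome where GFP-tagged CG8319 was recovered upstream of a start site and close to a start site on the opposite strand, nearly always between 2 genes transcribed away from each other. They were picked from the authors' optimal peak list of 4410 peaks, 3578 of them on autosomes. A peak qualified when its summit, the position of highest signal, lay at or upstream of the nearest transcription start site, within 500 bp of it, and also within 500 bp of a start site of a gene on the opposite strand. These divergent-pair peaks made up 11.7% of the autosomal optimal peaks (95% Wilson interval 10.7 to 12.8) and 37.7% of the 1115 autosomal peaks that lay upstream of a start site. The other 695 upstream peaks had no opposite-strand start within 500 bp and are called one-sided peaks below. Wilson intervals here cover counting over peaks or genes only.

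The measurement was ChIP-seq, the immunoprecipitation and sequencing of protein-bound DNA, on whole prepupae of both sexes pooled. Prepupae are animals at the onset of metamorphosis, and their age was given as unknown. The animals came from 1 stable transgenic line that makes CG8319 with GFP at its C-terminal end, and anti-GFP antibody was used; what drives the transgene was not given in the labels. There was 1 group, with 3 samples labelled as biological replicates 1, 2 and 3, so the only spread available is that between these 3 samples of the same line. Untagged animals were not analysed here. A whole animal mixes many tissues, so strong recovery in few cells and weak recovery in many cannot be told apart.

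Each replicate had its own list of 30000 regions, peaks together with background, and its 4410 highest-signal regions are called its top peaks. Read counts were not among the values used, and depth is therefore unknown. The signal is the authors' own value for each peak, on a scale that differs between lists, so values compare only within a list. The authors built the optimal list out of these replicate lists and a pooled one, so that agreement between replicates is partly built into it.

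In divergent (head-to-head) gene pairs, the promoters lie back to back on opposite strands and share the DNA between the start sites. The arrangement is common in the compact fly genome and frequent among genes that every cell uses. Fly promoters of such genes are known for short core elements such as the DNA replication-related element (DRE), bound by Dref, and Motif 1, bound by M1BP, and boundary proteins such as BEAF-32 and Cp190 are often found between divergent genes. CG8319 encodes a zinc finger protein.

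The sequences between the start sites of the 6 strongest qualifying pairs up to 300 bp apart are shown because they hold the regions of highest signal. The plus strand of dm6 is written 5′ to 3′ from the start site of the gene on the left, read leftward, to that of the gene on the right, read rightward. Capitals mark the 101 bp around the summit.
RpS28a / Axn, chr3R:30022648-30022842: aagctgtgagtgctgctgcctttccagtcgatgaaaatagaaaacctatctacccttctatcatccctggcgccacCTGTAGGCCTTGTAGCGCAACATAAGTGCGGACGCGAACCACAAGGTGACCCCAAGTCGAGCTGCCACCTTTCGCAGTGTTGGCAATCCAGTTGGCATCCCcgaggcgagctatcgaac
Max / Mettl5, chr3L:19264184-19264404: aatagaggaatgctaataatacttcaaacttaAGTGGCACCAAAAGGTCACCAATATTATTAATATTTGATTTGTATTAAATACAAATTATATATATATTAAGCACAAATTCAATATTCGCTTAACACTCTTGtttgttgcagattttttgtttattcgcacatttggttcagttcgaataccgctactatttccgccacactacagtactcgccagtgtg
Tcs5 / CHMP2B, chr3L:5139395-5139619: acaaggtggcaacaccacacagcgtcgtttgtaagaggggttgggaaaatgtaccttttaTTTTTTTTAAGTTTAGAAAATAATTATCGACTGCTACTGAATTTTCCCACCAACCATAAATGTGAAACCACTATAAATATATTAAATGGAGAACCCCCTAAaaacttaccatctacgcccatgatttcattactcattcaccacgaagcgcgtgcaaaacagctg
Art3 / mRpS10, chr3R:15229408-15229665: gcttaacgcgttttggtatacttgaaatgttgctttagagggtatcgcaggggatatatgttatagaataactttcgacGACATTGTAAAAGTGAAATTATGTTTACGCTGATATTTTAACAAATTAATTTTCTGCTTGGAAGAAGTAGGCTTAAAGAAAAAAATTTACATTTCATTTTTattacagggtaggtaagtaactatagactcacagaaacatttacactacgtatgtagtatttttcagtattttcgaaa
CG13390 / CG17294, chr2L:8376797-8377035: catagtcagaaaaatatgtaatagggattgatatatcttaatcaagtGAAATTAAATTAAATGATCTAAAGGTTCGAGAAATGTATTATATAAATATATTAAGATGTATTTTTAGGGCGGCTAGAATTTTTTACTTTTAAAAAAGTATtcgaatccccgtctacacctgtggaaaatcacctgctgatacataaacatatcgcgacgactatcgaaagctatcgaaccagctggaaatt
CG7601 / CIA30, chr3R:29736745-29736965: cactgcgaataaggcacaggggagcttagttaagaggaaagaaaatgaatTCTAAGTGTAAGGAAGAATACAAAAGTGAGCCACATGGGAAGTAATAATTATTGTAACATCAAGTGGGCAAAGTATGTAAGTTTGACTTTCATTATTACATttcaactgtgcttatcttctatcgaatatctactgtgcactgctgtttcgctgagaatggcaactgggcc
In 5 of these pairs the summit window was rich in A and T, from 68.3% at CG7601 / CIA30 to 79.2% at CG13390 / CG17294. The exception was the strongest of all 420 peaks, between RpS28a and Axn, with 42.6% A or T at its summit. Only 3 of the other members had less.

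Nearly all of these peaks lay where the name of the group puts them. In 397 of the 420 peaks, 94.5% (95% Wilson interval 91.9 to 96.3), the summit lay between the 2 start sites. When the same rule was applied to the top peaks of each replicate, 421, 412 and 447 peaks qualified in replicates 1, 2 and 3, and the summit lay between the starts in 95.1% ± 0.35 (SD, n = 3) of them. The other 23 optimal peaks belonged to genes that overlap head to head, so their summits were upstream of the nearer start but inside the gene on the opposite strand. A non-coding RNA gene took part in 14 of these 23. The strongest of them lay 118 bp upstream of Adck1, with a pooled signal of 649. At 373 of the 420 peaks, 88.8%, both genes were protein-coding. A non-coding RNA gene took part at 39 peaks, a tRNA gene at 5 and a pseudogene at 3. In the annotation 316 summits were intergenic, 55 intronic and 27 in a 5′ UTR, with 16 in non-coding exons, 4 in 3′ UTRs and 2 in coding exons, counting every annotated transcript.

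Divergent-pair peaks were found on every autosomal arm, with 93 on 2L, 86 on 2R, 100 on 3L, 138 on 3R and 3 on chromosome 4. On the 4 large arms their share of the optimal peaks ran from 10.03% of 997 on 3L to 13.4% of 1030 on 3R, with Wilson intervals that overlap, and was 23.1% of the 13 on chromosome 4 (8.18 to 50.3). The peaks named 798 genes in 401 distinct pairs. In 19 pairs there were 2 members each, and 24 members overlapped a stronger optimal peak. The members are therefore not all independent, and a weaker member can be assigned the replicate region of its neighbour. The pair of Cpsf100, an mRNA 3′ end processing subunit, and beta4GalNAcTB is an example, with optimal signals of 179 and 88.0 at 2 overlapping peaks.

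Among the 397 peaks between the starts, the summit lay a median of 53 bp from the midpoint (quartiles 23 and 97.5). The median distance was 105 bp to the nearest start (quartiles 68 and 136) and 222 bp to the opposite one (quartiles 162 and 311). The median distance between the starts was 319 bp (quartiles 256 and 436, range 19 to 813). In 186 of the 397, 46.9%, the summit was within 50 bp of the midpoint. As the starts lay farther apart, the opposite start receded faster than the near one. The median near distance was 87 bp in pairs 200 to 249 bp apart and 156 bp in pairs 500 to 599 bp apart, while the opposite distance went from 147 to 390 bp. The near start is by definition the closer of the 2, so a faster rise of the opposite distance is partly fixed by the naming. No placement of the summit is read from it. The rule also caps the opposite distance at 500 bp. In one-sided peaks the median distance to the nearest start was 197 bp, a difference that is partly fixed by the rule, because a peak between 2 starts cannot be far from both.

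**Figure D1:**
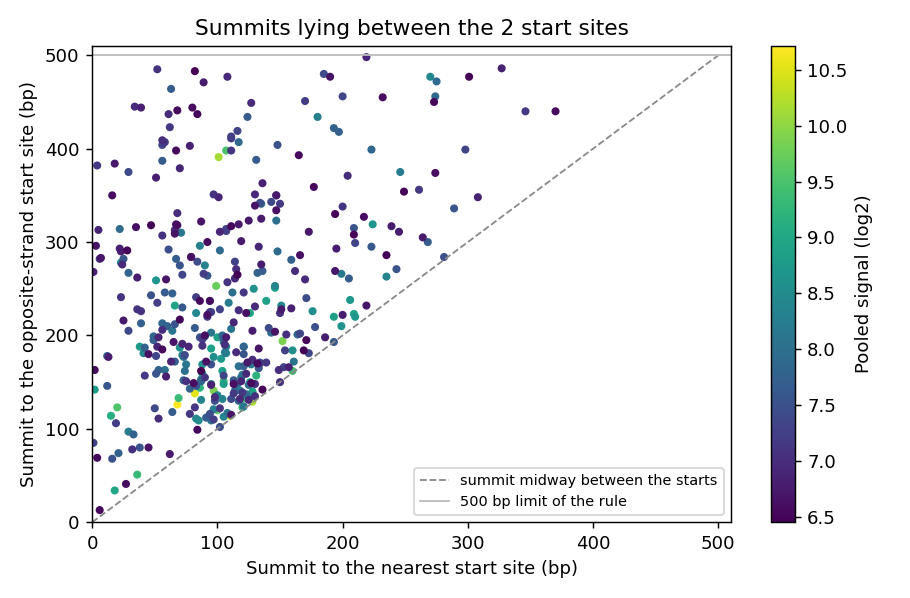
Each point is 1 of the 397 divergent-pair peaks with its summit between the starts. The horizontal axis gives the distance in bp from the summit to the nearest start and the vertical axis the distance to the opposite-strand start; colour gives the pooled signal on a log2 scale. The quartiles of the distance to the closer start are 68 and 136 bp, and points on the dashed line are midway.

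Pairs whose starts lay less than 200 bp apart were rarely occupied, and pairs 200 to 399 bp apart most often. To measure this independently of which peaks qualified, all 2105 adjacent divergent pairs of autosomal protein-coding genes with starts up to 1000 bp apart were taken from the annotation. An optimal summit lay between the starts in 363 of them, 17.2%. The share was 4.06% of the 640 pairs under 200 bp apart (95% Wilson interval 2.79 to 5.89). It was 28.3% of the 757 pairs 200 to 399 bp apart (25.2 to 31.6) and 17.4% of the 708 pairs 400 to 1000 bp apart (14.8 to 20.3). The step came between neighbouring bins, with 8.26% of 121 pairs at 150 to 199 bp (4.55 to 14.5) and 26.5% of 196 pairs at 200 to 249 bp (20.8 to 33.1).

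All 3 replicates showed the step. Of the pairs 200 to 399 bp apart, 30.1%, 28.8% and 30.6% held a top peak summit in replicates 1, 2 and 3. Of the pairs under 200 bp apart, 5.47%, 4.69% and 4.38% did. The difference was 25.01 ± 1.13 percentage points (SD, n = 3; p = 0.25 in an exact two-sided sign-flip permutation test over the replicates, the smallest p that 3 replicates allow, so that no such test can pass 0.05 here). A short interval offers less room for a summit. When a summit within 150 bp of the midpoint was counted instead, whatever the distance between the starts, the optimal list gave 13.4% of the pairs under 200 bp and 28.4% of those 200 to 399 bp apart, and the replicate difference fell to 16.6 ± 1.76 points. By this count the pairs 400 to 1000 bp apart, at 10.03%, were below the shortest ones, the reverse of the order between the starts.

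**Figure D2:**
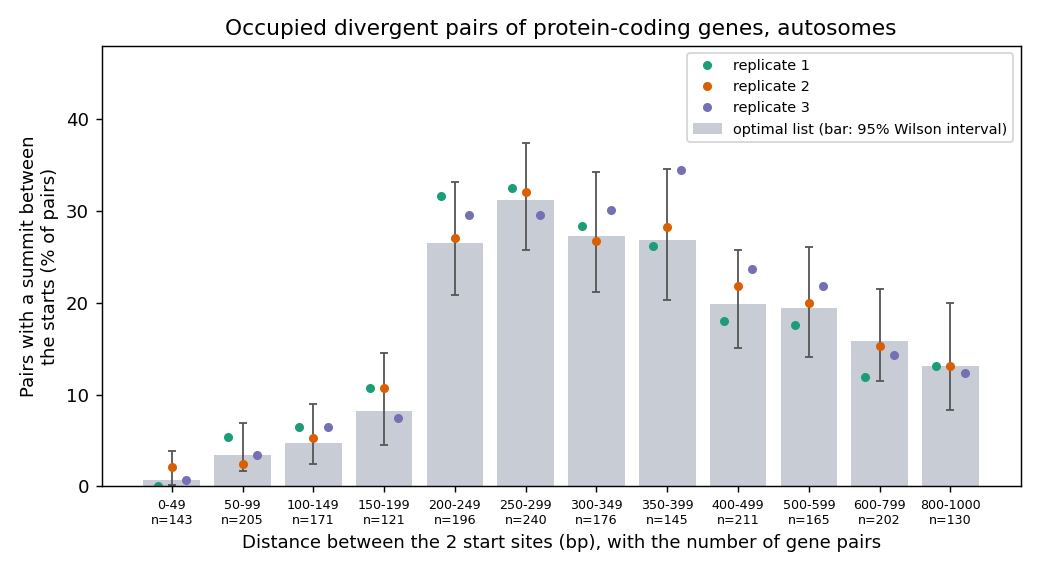
Bars give the percentage of divergent protein-coding pairs with an optimal summit between the starts, by distance between the starts in bp, with 95% Wilson intervals; points give the same for the top peaks of each replicate. Occupancy stays under 10% in the optimal list below 200 bp, lies between 26.5% and 31.3% from 200 to 399 bp and declines to 13.1% at 800 to 1000 bp.

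Some of the closest and widest occupied pairs are described here, and gene functions among them were not counted. The shortest distance was 19 bp, between MED6, a subunit of the Mediator coactivator, and Naa80, whose human counterpart acetylates actin. Its pooled signal was 93.2, and it was a top peak in 1 replicate. CG32022 and CG6511 lay 52 bp apart with a pooled signal of 498, and signals of 120, 219 and 158 in replicates 1, 2 and 3, a top peak in each. Dref, which encodes the DRE-binding factor, and RpL13, a large-subunit ribosomal protein gene, lay 84 bp apart, with a pooled signal of 181 and a top peak in all 3. The widest were Ugt50B3 / CG30440 at 813 bp, Cals / Arf4 at 810 bp and cmet / cana at 778 bp, the last a pair of related kinesin genes of the CENP-E type. Their pooled signals, 116, 95.2 and 88.9, were all below the median of the members.

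Genes in a divergent arrangement had a peak upstream more often than the others. Of 11749 autosomal protein-coding genes, 1525 or 13% had an optimal summit within 500 bp upstream of a start site. Among the 4670 genes with an opposite-strand start of another gene up to 1000 bp upstream, 966 or 20.7% (95% Wilson interval 19.5 to 21.9) had one upstream of such a start. Among the 7079 others 470 did, 6.64% (6.08 to 7.24). The difference was 13.98, 14.4 and 14.8 percentage points in replicates 1, 2 and 3, or 14.4 ± 0.39 (SD, n = 3; p = 0.25, exact two-sided sign-flip permutation test, the smallest possible). A summit between 2 starts counts for both genes in this comparison. Counted once per pair, the share of 17.2% given above stands beside 6.64% per one-sided gene. The 2 shares are not counted alike. The first takes a summit anywhere between 2 protein-coding starts up to 1000 bp apart, the second one within 500 bp upstream.

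The strongest divergent-pair peaks were strong in all 3 replicates. Between Axn, the scaffold of the Wingless pathway's destruction complex, and RpS28a, a small-subunit ribosomal protein gene, the signal was 355, 819 and 501 in replicates 1, 2 and 3. The peak at chr3R:30022594-30022956 ranked 6, 3 and 3 among each replicate's regions and 3 in the optimal list, with a pooled signal of 1680. Its summit was 68 bp from the Axn start and 126 bp from the RpS28a start. Max, the dimerization partner of Myc, and Mettl5, an rRNA methyltransferase gene, followed with 372, 729 and 363 and a pooled signal of 1463. Tcs5, a kinase of the complex that modifies tRNA, and CHMP2B, a membrane-remodelling ESCRT subunit, had 249, 559 and 465. These 3 peaks ranked between 3 and 21 among the regions of every replicate.

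The next strongest included peaks beside 2 mitochondrial ribosomal protein genes. The one between mRpS10 and Art3, an arginine methyltransferase gene, had signals of 221, 576 and 348, with the summit 128 and 129 bp from the 2 starts. The peak beside CenG1A, an Arf GTPase-activating protein gene, lay 101 bp from its start and 391 bp from that of mRpS23, with signals of 263, 563 and 303. CG7601 / CIA30, the latter an assembly factor of respiratory complex I, had 146, 424 and 243. The rest of the 15 strongest, by rank of pooled signal, were Pal1 / Pdrg1, CG13390 / CG17294, CG5611 / Mtl (a Rac-type GTPase), Mnat9 / CG1792, Shc / Atat (a signalling adaptor and a tubulin acetyltransferase), CG5098 / CG5757, PTPMT1 / Hrd3 (a mitochondrial lipid phosphatase and an endoplasmic reticulum degradation factor), Lon / PIG-F (a mitochondrial protease and a GPI anchor synthesis factor) and Lamtor3 / fws. Their pooled signals ran from 941 to 651.

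**Figure D3:**
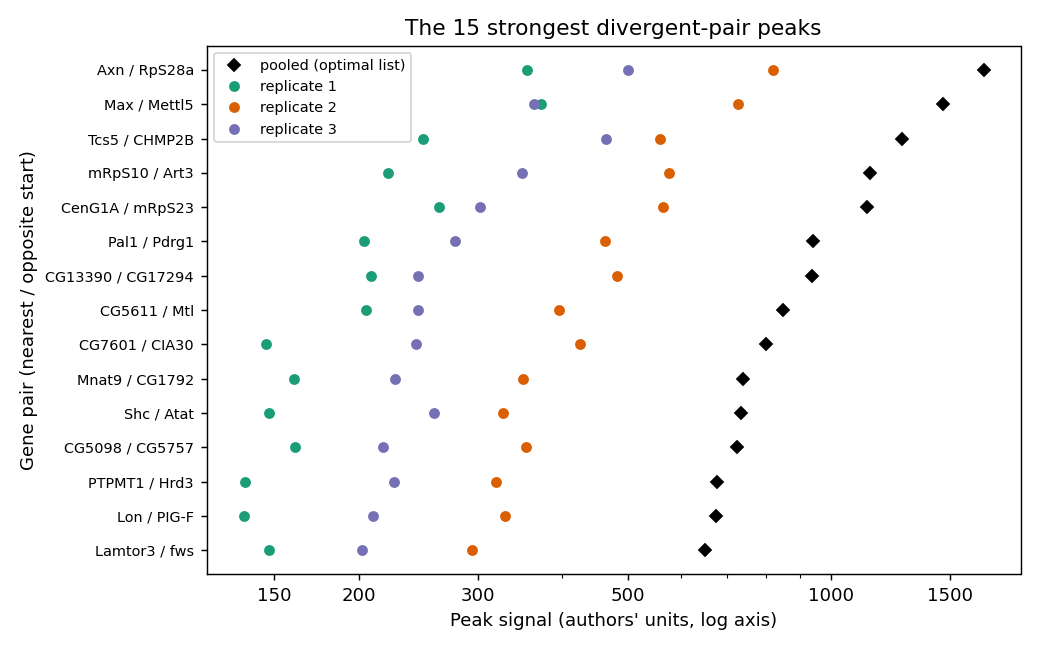
The 15 divergent-pair peaks of highest pooled signal that were top peaks of all 3 replicates, with the authors' signal in each replicate and in the pooled optimal list on a log axis. Scales differ between lists, so only the order within a list compares; Axn / RpS28a leads the optimal list at 1680 and Lamtor3 / fws closes it at 651.

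Over all members, 289 of 420 overlapped a top peak of all 3 replicates, 68.8% (95% Wilson interval 64.2 to 73.1), against 66.1% of all autosomal optimal peaks and 73.4% of the one-sided peaks (70.0 to 76.5). The member share was thus near that of the whole list. Of the remainder, 93 were top peaks in 2 replicates, 35 in 1 and 3 in none. Those 3 lay at Cals / Arf4, Wdr33 / CG2182 and CG5112 / Gnpat, with pooled signals from 91.1 to 95.2. The 42 members of highest pooled signal were all top peaks in the 3 replicates, and 5 of the 42 of lowest pooled signal were. Spearman's rho across members between the signals of 2 replicates was 0.80 (replicates 1 and 2), 0.79 (1 and 3) and 0.83 (2 and 3), given as a description over peaks that share the optimal list. The 5 weakest members lay at cmet / cana, Irp-1A / asRNA:CR45648, Rox8 / CG5986, Cpsf100 / beta4GalNAcTB and asRNA:CR45384 / CG13255, with pooled signals from 88.9 down to 87.5.

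The direction of the signal difference between divergent-pair and one-sided peaks varied between replicates. The median pooled signal was 159 (quartiles 114 and 252) against 165 (114 and 275), with 145 over all autosomal optimal peaks. In replicate 1 the medians were 39.9 and 43.9, in replicate 2 they were 78.2 and 81.7, and in replicate 3 they were 53.6 and 50.3. The log2 difference, divergent-pair minus one-sided, was thus negative in 2 replicates and positive in 1, with a mean of -0.04 ± 0.12 (SD, n = 3; p = 0.75, exact two-sided sign-flip permutation test). Without replicate 1 the mean was 0.01. A limit of 200 bp for both classes, which left 176 divergent-pair peaks, turned it to 0.22 ± 0.08 (p = 0.25, exact sign-flip permutation test, positive in 3 of 3 replicates). Members whose opposite start lay beyond 200 bp then counted as one-sided, if their nearest start was within 200 bp. The comparison group was therefore not the same.

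Median signal was lower at wider distances between the starts from 200 to 499 bp, and not beyond. The median pooled signal of peaks between the starts was 214 in pairs 200 to 249 bp apart (57 peaks), 199 at 250 to 299 bp (82 peaks) and 157 at 300 to 349 bp (55 peaks). It was 138 at 350 to 399 bp and 126 at 400 to 499 bp (61 peaks), then 135 at 500 to 599 bp (36 peaks) and 161 at 600 to 799 bp (23 peaks). In that last bin the medians of replicates 1, 2 and 3 were 43.1, 82.8 and 57.4, against 47.8, 98.6 and 67.3 at 250 to 299 bp. In pairs 200 bp or more apart, Spearman's rho between the distance and the signal was -0.23 in each of replicates 1, 2 and 3 and -0.28 for the pooled signal, over 366 peaks, given as a description. The 31 peaks in pairs under 200 bp apart had a median of 181. The share of top peaks in all 3 replicates was 75% of 244 peaks in pairs 200 to 399 bp apart and 57.4% of 122 in wider ones.

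**Figure D4:**
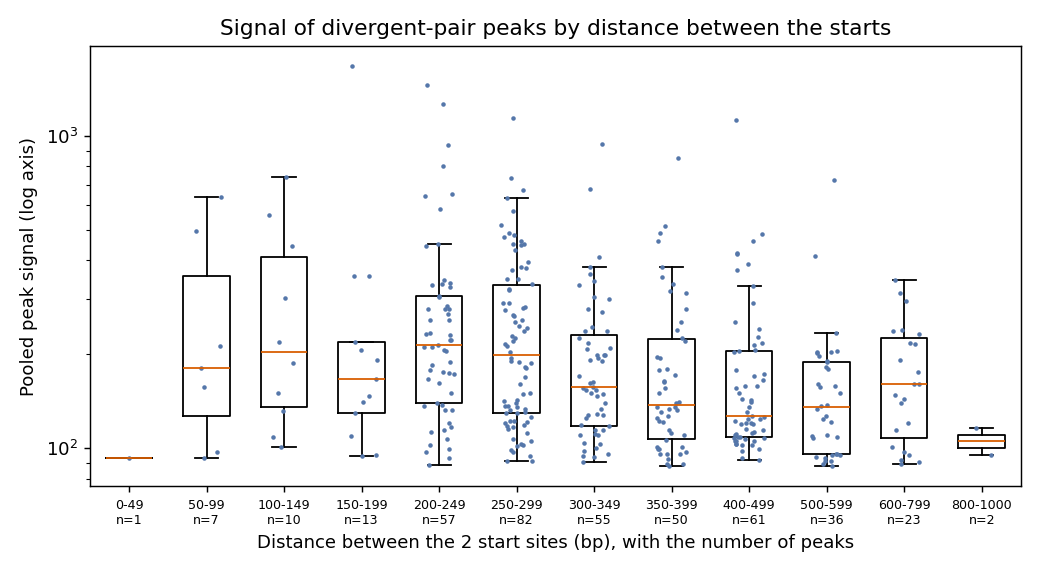
Pooled signal (log axis) of the 397 peaks with the summit between the starts, by distance between the starts in bp; points are peaks, boxes span the quartiles, orange lines are medians and whiskers reach at most 1.5 times the box. Medians go from 214 at 200 to 249 bp down to 126 at 400 to 499 bp and up to 161 at 600 to 799 bp; bins under 200 bp hold 13 peaks or fewer each.

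Summits lay on A and T rich DNA. Within 50 bp of member summits 67.8% of bases were A or T, against 54.3% in windows centred 300 bp to either side, and 292 of the 420 windows reached 65%. In the members found in each replicate's top peaks the rise was 12.7, 14.9 and 14.03 percentage points, or 13.9 ± 1.09 (SD, n = 3; p = 0.25, exact two-sided sign-flip permutation test, the smallest possible). The rise was 9.01 ± 2.00 points at one-sided peaks, and the difference between the 2 classes was 4.88 ± 0.94 points, positive in 3 of 3 replicates (p = 0.25, exact sign-flip permutation test). Other classes had rises close to that of the members, which was 13.5 points in the optimal list. The 2162 autosomal optimal peaks with no start within 500 bp had 67.1% A or T at the summit and a rise of 12.9 points, and the 55 peaks on the X that met the same rule had 66.5% and 12.9 points. The flanks of members were poorer in A and T than those of one-sided peaks, 54.3% against 56.1%. In members between the starts the opposite start lay a median of 222 bp from the summit (upper quartile 311). Flank windows centred 300 bp away therefore reach into both transcribed genes in most of these members. One-sided peaks have no opposite-strand start within 500 bp, so the flanks of the 2 classes are not alike. How far this moves the difference in rise was not tested. The 84 members of highest signal had 70.2% A or T at the summit and the 84 of lowest signal 66.4%.

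Pairs without a peak were A and T rich as well. At the midpoints of the 543 pairs 200 to 399 bp apart with no optimal summit, 71.5% of bases were A or T (SD 8.81 over pairs), against 74.6% (SD 6.56) at the 214 occupied ones. The difference was 3.03, 3.28 and 3.19 percentage points with the top peaks of replicates 1, 2 and 3. Between the starts as a whole the 2 groups had 65.8% and 66.3%. In 20 bp bins around the midpoints without a peak, A or T was 52.3% at 290 bp to either side and 72.0% and 72.3% in the central bins. Around member summits it was 54.1% and 53.2% at 290 bp, and 69.1% and 68.1% in the central bins. A rise of A or T towards the centre was thus not particular to occupied pairs. Occupancy differed mainly at the low end. It was 12.3% of the 162 pairs with 66.3% A or T or less at the midpoint, and from 31.25% to 35.3% in 4 bands of higher A or T, of 128 to 183 pairs each. In replicates 1, 2 and 3 the lowest band had 14.8%, 12.3% and 13.6%, and the others ran from 31.1% to 38.6%. Of the pairs under 200 bp apart, 142 had 65% A or T or more at the midpoint. Among these 14.1%, 10.6% and 9.86% held a top peak summit between the starts in replicates 1, 2 and 3. Of the 640 such pairs 200 to 399 bp apart, 33.0%, 31.9% and 34.1% did. The shorter intervals offer less room in this count too, and in the shortest pairs the 101 bp midpoint window runs past the starts. Room and A or T content were not separated here.

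**Figure D5:**
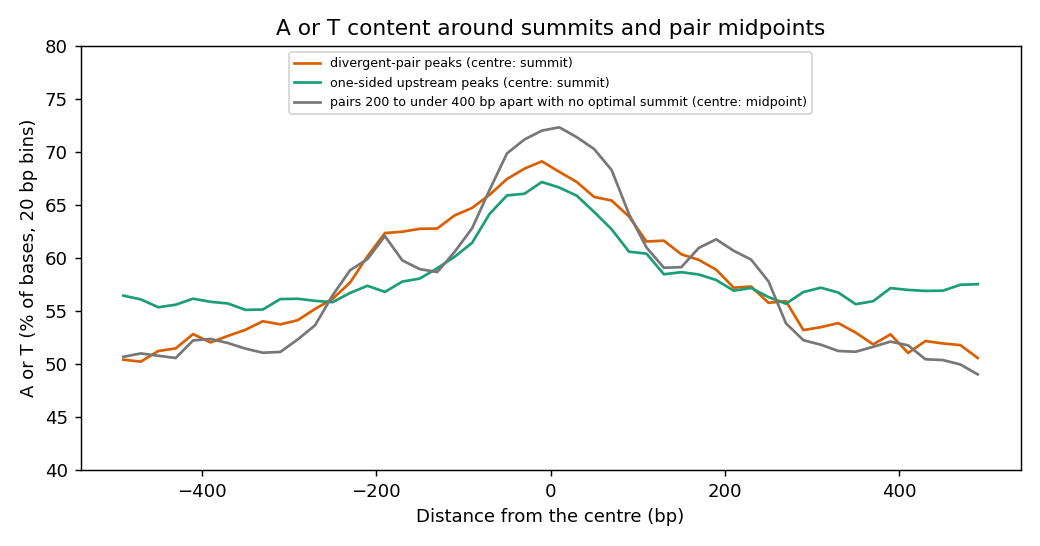
Mean percentage of A or T in 20 bp bins by distance in bp from the summit of divergent-pair peaks and one-sided peaks, and from the midpoint of pairs 200 to 399 bp apart without an optimal summit. The vertical axis starts at 40%; members reach 69.1% at the summit and the pairs without a summit 72.3% at the midpoint.

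Of the words of 6 bases, the 20 whose share of member windows exceeded that of flanks the most were all made of A and T only. TTAAAA was held by 40.5% of member windows, on either strand, against 13.9% of flank windows. It was also held by 46.6% of the midpoint windows of pairs without a peak. DRE, Motif 1 and Motif 7 were held by few summit windows. DRE, written TATCGATA, was in 4.05% of the 420 windows (95% Wilson interval 2.54 to 6.39). It was in 1.07% of flank windows, 1.58% of one-sided summits, 1.66% of midpoints without a peak, and 1.74% of windows 55 to 155 bp upstream of all autosomal protein-coding starts. Its share in the members of replicates 1, 2 and 3 was 6.18%, 2.43% and 4.25%. Motif 7, CATCNCTA, was in 3.33% (2.00 to 5.52) against 1.43% of flank windows, and Motif 1, GGTCACAC, in 1.19% against 1.79%. With 100 bp to each side, DRE was in 8.10% of member windows, 2.14% of flank windows, 6.63% of midpoints without a peak and 5.39% of windows upstream of all starts. Motif 7 was then in 7.62% of member and 2.62% of flank windows, and Motif 1 in 3.33% and 2.86%, so that its order turned. TATAAA was in 26.9% of member windows, 8.45% of flank windows and 28.5% of midpoints without a peak. GAGAGA was in 2.86% of member windows, 4.405% of flank windows, 4.89% of one-sided summits and 7.504% of the windows upstream of all starts. At midpoints without a peak its share was 2.03%, below that of members. Both strands were searched. TATCGATA contains the shorter CGATA, which was in 21.9% of member windows and 18.1% of those upstream of all starts. CGATA was in 12.4% of flank windows, 14.1% of one-sided summits and 13.8% of midpoints without a peak. With 100 bp to each side it was in 40.7% of member windows and 36.8% of midpoints without a peak.

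Of the 420 members, 12 held 2 or more of 8 factor motifs (DRE, Motif 1, Motif 7, GAGAGA, the E-boxes CACGTG and CAGCTG, the Zelda word CAGGTA and the GATA word AGATAA). Among them, 4 are given as 101 bp summit windows on the plus strand of dm6, with the motifs in capitals on whichever strand they occur.
CG5611 / Mtl, chr3R:27636109-27636209: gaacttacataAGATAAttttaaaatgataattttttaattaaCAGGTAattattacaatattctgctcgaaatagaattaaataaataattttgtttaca
CG7369 and its divergent partner, chr3L:22741607-22741707: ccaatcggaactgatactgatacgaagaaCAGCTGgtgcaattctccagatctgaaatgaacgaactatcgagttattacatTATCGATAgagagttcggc
bigmax / Hmu, chr3R:27288608-27288708: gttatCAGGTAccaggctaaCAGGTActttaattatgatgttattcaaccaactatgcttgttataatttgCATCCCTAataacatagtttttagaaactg
RpL34a / Trmt61, chr3R:26059268-26059368: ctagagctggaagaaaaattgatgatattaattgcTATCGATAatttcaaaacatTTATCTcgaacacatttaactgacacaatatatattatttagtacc
The first holds the Zelda and GATA words, the second DRE and CAGCTG, the third Motif 7 and the Zelda word, and the fourth DRE and the GATA word. For comparison, summit windows of 2 of the 5 weakest members are shown with runs of 6 or more A or T in capitals.
beta4GalNAcTB / Cpsf100, chr3R:29034441-29034541: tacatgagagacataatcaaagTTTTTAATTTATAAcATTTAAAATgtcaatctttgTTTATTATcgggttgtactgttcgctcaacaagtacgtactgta
asRNA:CR45384 / CG13255, chr3L:20837254-20837354: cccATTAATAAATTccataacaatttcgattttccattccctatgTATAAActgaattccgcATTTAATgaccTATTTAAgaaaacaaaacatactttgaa
These weak members had 71.3% and 72.3% A or T at the summit, above the mean of all members, whereas the 84 members of lowest signal averaged 66.4%, below it.

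The genes at divergent-pair peaks were sorted by lists of named cellular functions. Of all autosomal protein-coding genes, 769 or 6.55% had a start within 500 bp of a member summit, and 761 of these were among the 4670 genes in divergent arrangements, 16.3% of them. The lists were chosen with earlier results of these data known, so their counts are descriptions. In all, 92 members had a listed gene on either side, and 5 had one on both, among them RpS27 / Nup37, RpL28 / eIF1 and Nup160 / Csl4.

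Ribosomal protein genes stood at many of these peaks. Of 78 cytoplasmic ribosomal protein genes 21 had a member, 26.9% (95% Wilson interval 18.3 to 37.7), or 44.7% of the 47 in divergent arrangements. This was not particular to divergent-pair peaks. With peaks of any class counted, 39 of the 78 had an optimal summit upstream of a start, 50%, against 13% of all genes. At the 21 genes with a member the median pooled signal was 220, against 167 over all genes at members. After RpS28a, the highest were RpS27, which shares its peak with the nuclear pore gene Nup37, with signals of 110, 175 and 148 in replicates 1, 2 and 3, and RpL32, with 103, 156 and 117. Mitochondrial ribosomal protein genes had 11 of 62, 17.7% (10.2 to 29.0), led by mRpS10, mRpS23 and mRpS2, with a median of 136. Of these 62, 49 lie in divergent arrangements, and 22.4% of the 49 had a member, against 16.3% of all such genes. Peaks of any class upstream of a start stood at 15 of the 62, 24.2%.

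The 21 peaks at cytoplasmic ribosomal protein genes ranked higher in replicate 1 than in the others. Ranks are within the 30000 regions of each replicate, with 1 the highest signal. Over the 398 members listed in all replicates the median rank was 1830.5, 1882 and 1472.5 in replicates 1, 2 and 3, and at these 21 it was 729, 1780 and 1194. At mitochondrial ribosomal protein genes (10 peaks) it was 1142.5, 1736.5 and 1567, and at vesicle traffic genes (9 peaks) 2331, 1694 and 1680. Dref / RpL13, for example, ranked 686, 2749 and 1210, and RpL4 / BCAS2 ranked 1024, 4139 and 2191. This comparison was chosen after the values were seen, and what moves with it was not tested.

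Transcription and promoter genes were represented too. RNA polymerase, general factor and Mediator genes had 14 of 71, 19.7% (12.1 to 30.4), or 28% of the 50 in divergent arrangements, led by MED30, a Mediator subunit, with signals of 69.4, 191 and 105 in replicates 1, 2 and 3. Next came Polr2B, the second-largest subunit of RNA polymerase II, with 70.1, 142 and 91.6, and Polr3E of RNA polymerase III, with 54.7, 152 and 85.8. Of 13 insulator and promoter factor genes 4 had a member, 30.8% (12.7 to 57.6), and 10 of the 13 lie in divergent arrangements. These were Cp190, a boundary protein, with 95.3, 233 and 131, M1BP with 56.6, 94.2 and 84.1, Dref with 68.6, 60.9 and 60.4, and BEAF-32 with 20.8, 71.5 and 50.8. BEAF-32 was a top peak in 2 replicates and the other 3 genes in all 3. Peaks of any class upstream of a start stood at 17 of the 71 genes of the first list and 6 of the 13.

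Autophagy genes had 6 of 17, 35.3% (17.3 to 58.7), or 42.9% of the 14 in divergent arrangements. Peaks of any class upstream of a start stood at 8 of the 17. The list was led by Atg17, part of the initiating kinase complex, with signals of 87.7, 171 and 121. Next came Atg2, a lipid transfer protein gene, with 80.5, 147 and 112, and Atg4b, a protease gene, with 43.5, 101 and 56.4. Aminoacyl-tRNA synthetases had 4 of 30, 13.3% (5.31 to 29.7), led by IleRS with 44.1, 136 and 74.6. Translation factors had 4 of 46, 8.7% (3.43 to 20.3), led by eIF4EHP, a cap-binding repressor of translation, with 110, 227 and 140. Both intervals contain the 6.55% of all genes. In divergent arrangements the shares of these lists were 20% and 16.7%, against 16.3% of all such genes. Oxidative phosphorylation had 6 of 74 and vesicle traffic 9 of 94, shares of 8.11% and 9.57%, not far from the 6.55% of all genes. Vesicle traffic was led by Vps33B with 115, 231 and 143, Sec63 with 109, 257 and 120 and alphaCOP with 116, 227 and 114.

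The smaller lists had few genes at members. Nucleoporins had 3 of 19, splicing factors 3 of 26, led by Sf3b6, and rRNA processing and exosome genes 2 of 17, Csl4 and Rrp1, the latter a DNA repair gene in flies that matched the list by its symbol. Heat shock proteins and co-chaperones had 2 of 31, Hsc70-5 and Hsc70-4. Mitochondrial import had 1 of 11 (Tom7), DNA replication 1 of 19 (Mcm2), cyclins and their kinases 1 of 18 (Cdk12) and ubiquitin conjugation 1 of 17 (Uba2). Intervals of all these shares contain 6.55%.

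Other lists had no member at all. None of 42 proteasome genes had one, although 23 of them lie in divergent arrangements, where 16.3% of all genes had a member. Over the 42 genes the Wilson upper bound of 8.38% was above the 6.55% of all genes. No interval was made over the 23. Of the 42, 3 had an optimal summit upstream of a start, 7.14%. None of 18 ecdysone response genes had a member (upper bound 17.6%), although 7 of these had an optimal summit upstream of a start. Only 4 of those 18 lie in divergent arrangements. Cuticle protein genes had none of 112 and chemoreceptor genes none of 154, with upper bounds of 3.32% and 2.43%, and no gene of either list had any optimal summit within 500 bp upstream. Of these, 17 and 25 lie in divergent arrangements.

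The 3 members whose opposite start was farthest, at 486 to 498 bp, were Ugt50B3 / CG30440, Coop / asRNA:CR43723 and CG2246 / CG31021, with pooled signals of 116, 146 and 120. The 3 peaks nearest outside, with the opposite start at 502 to 509 bp, were CG46385 / asRNA:CR45108, RpL10Ab / CG5946 and Nepl19 / Nepl20, with 227, 107 and 224.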

How the data were processed

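ChIP-seq peak lists of 3 biological replicates of GFP-tagged CG8319 prepupae, 1 group, were used on dm6, with positions counted from 1. Per the deposited text notes, the authors called each replicate's list from its alignment and a control, called a pooled list from the 3 alignments, and derived the optimal list by IDR (irreproducible discovery rate). The sources used here do not give the aligner, the caller, their versions or the threshold. The deposited signal of each peak is the authors' value, on a scale that differs between lists. The deposited −log10 q-value was the same in all 4410 optimal peaks and was not used further. No counts were used, so depth per sample is unknown and intervals cover peaks or genes only.

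Start sites (23998, of 18164 genes) came from the Ensembl annotation of BDGP6, release 115, without transposable elements. Sequence came from the RefSeq genome of the same assembly, with arm lengths checked against its annotation. An overlap of 1 bp or more with one of a replicate's 4410 highest-signal regions counted as found. Motifs (14), words of 6 bases and gene lists (21, matched by symbol) are described without a test. The rule for genes named takes the 15 strongest members found in all replicates, up to 3 per list, the 5 weakest, the 5 shortest and 5 widest protein-coding pairs, those nearest the 500 bp limit, and members found in no replicate; not every one is printed, and any outside it was chosen after its value was seen. Replicate means were tested with an exact two-sided sign-flip permutation test over the 3 replicates, which measures the spread between these samples only and cannot go below 0.25. Members and lists were chosen with earlier results of these data known. Alternatives covered the distance limit, biotypes, stronger peaks, overlap, window width and leaving out each replicate. Scripts were tested on simulated data. Python 3.11.15 with pandas 2.3.3, numpy 2.4.6 and matplotlib 3.10.9 was used.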

Additional observations from a re-analysis of the deposited data

How the results depend on the processing

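The number of divergent-pair peaks was 420; it was 235 among the 2205 strongest optimal peaks and 176 with a limit of 200 bp, both of which take fewer peaks by construction. The share with the summit between the starts was 98.3% with a limit of 200 bp, 91.4% with 1000 bp and 97.6% with protein-coding starts only. The share found in all 3 replicates was 95.7% among the 2205 strongest, 64.0% when 50% of the peak had to overlap, and 43.8% with 2205 top peaks per replicate. The log2 signal difference to one-sided peaks, -0.04, turned positive among the 2205 strongest (0.0082), with a limit of 200 bp (0.22), with protein-coding starts only (0.0047) and among peaks found in all 3 replicates (0.029), and ranged from -0.10 to 0.013 when 1 replicate was left out; the cause was not tested. The differences in occupancy and the rise in A or T kept their sign under every alternative run, from 8.59 to 15.3 percentage points for genes in divergent arrangements, 12.04 to 18.5 for A or T, and 15.9 to 25.5 for pairs 200 to 399 against under 200 bp apart. The last comparison and its alternatives, and those leaving out members beside a stronger peak, were chosen after seeing the data. With 3 samples of 1 group and no depth, differences between replicates cannot be weighed against counting error.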

Other observations

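On the X chromosome 55 of 832 optimal peaks met the same rule, 6.61%, against 11.7% on the autosomes. All 55 summits lay between the starts, with a median distance of 381 bp between the starts and a median pooled signal of 142. The strongest lay between bves, a Popeye domain gene, and Stt3A, a subunit of the oligosaccharyltransferase, with a pooled signal of 499. Of the 55, 33 were top peaks of all 3 replicates, 60.0%. These X peaks were not compared with the autosomal ones by a test.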
